A study of Homo sapiens with 2 samples.

Results

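The genes described here are immediate early genes and feedback regulators of the mitogen-activated protein kinase (MAPK) cascades. They were chosen by name with a rule that used no measured value, but with earlier results of these data known. The list held 41 genes: AP-1 subunits, EGR factors, KLF and ZFP36 genes, IER and NR4A genes, MYC, MAFF, the ETV1, ETV4 and ETV5 factors, and the DUSP, SPRY and SPRED inhibitors. Every probe set that the platform annotation gave to exactly 1 gene was used, and 38 of the 41 genes were measured by 85 of 34880 such probe sets. Differences of EGR2, EGR3 and NR4A2 are not analysed here, and EGR2 enters only the promoter search. The study used Affymetrix U133 Plus 2.0 arrays to measure RNA in LNCaP, an established line of human prostate carcinoma cells that respond to androgen. Control cells carried lentivirus of the empty pLKO.1 vector and knockdown cells carried lentivirus with a hairpin RNA (shKDM4A) against KDM4A, a demethylase of histone H3. Both cultures grew in medium with fetal bovine serum, received virus packaged in HEK293T cells and were harvested 3 days after infection. There was 1 array per group, so no difference below has a replicate check or a p-value, and effects of the hairpin, of the separate infections and of array processing cannot be told apart. The control vector carried no hairpin of its own, and the labels name a single hairpin construct.

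Immediate early genes are switched on within minutes of a growth factor, serum or stress signal, without the need for new protein. The signal runs from receptors through RAS, RAF and MEK to the kinase ERK, or through parallel kinases to p38 and JNK, and reaches promoters through SRF with its ETS partners and through CREB. Their products are mostly transcription factors and RNA-binding proteins that set the later response. A second set of induced genes closes the loop: DUSP phosphatases remove phosphates from MAP kinases, and SPRY and SPRED proteins damp the cascade at the level of RAS and RAF.

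Each value is a log2 difference, knockdown minus control, of RMA-normalised values that were centred on the mean of the 2 arrays, so the values of the 2 arrays mirror each other and signal levels are lost. Presence of prostate markers could therefore not be checked by level. The differences of the 6 measured luminal prostate markers lay between 0.076 and 0.48. KDM4A, the target of the hairpin, read 0.45 and 0.73 on the control array and -0.45 and -0.73 on the knockdown array in its 2 probe sets, a difference of -1.18 ± 0.40 (SD over 2 probe sets), or 2.26-fold lower. The 5 proliferation markers were all lower, from -0.67 for MKI67 to -3.53 for TOP2A, and the part of this shift in the values below was not tested. All 17689 genes had a median of 0.020 and quartiles of -0.14 and 0.18. Errors after ± are SDs among the probe sets of 1 gene and do not measure the spread between cultures.

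The early genes and feedback regulators lay mostly above 0 by small amounts. Of the 38 measured genes, 28 (73.7%) were above 0, beside 53.7% of all genes. The median of the 38 was 0.13 and the quartiles were -0.035 and 0.36. The median was 0.22 over the 29 members left without probe sets whose identifiers end in _s_at or _x_at. JUND, EGR1, KLF4, KLF10, DUSP1, DUSP6, SPRY4, IER3 and MYC had only such probe sets and dropped out. Of the 29 left, 22 were above 0, beside 53.3% of all genes in that setting. With medians over probe sets 25 of the 38 were above 0, beside 54.1%. With the median difference subtracted 27 of the 38 were above 0, beside 51.1%. None was 2-fold higher or lower, beside 1.16% of all genes that were at least 2-fold higher and 1.44% that were at least 2-fold lower. At a rule of 1.5-fold, 1 of 38 was higher (DUSP8) and 1 was lower (DUSP4), beside 4.3% and 4.38% of all genes. Without probe sets whose identifiers end in _s_at or _x_at, which can match several transcripts, 2 of the 29 members left were at least 1.5-fold higher (DUSP8 and KLF6), beside 4.37% of all genes. Of the 85 probe sets, 56 (65.9%) were above 0, beside 53.3% of all probe sets with 1 gene. Among the 23 members with at least 2 probe sets, 9 had all of them above 0, 1 had all below 0 and 13 had them on both sides. Agreement on one side, 10 of 23, compares with 50.3% of all genes with at least 2 probe sets.

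**Figure D1:**
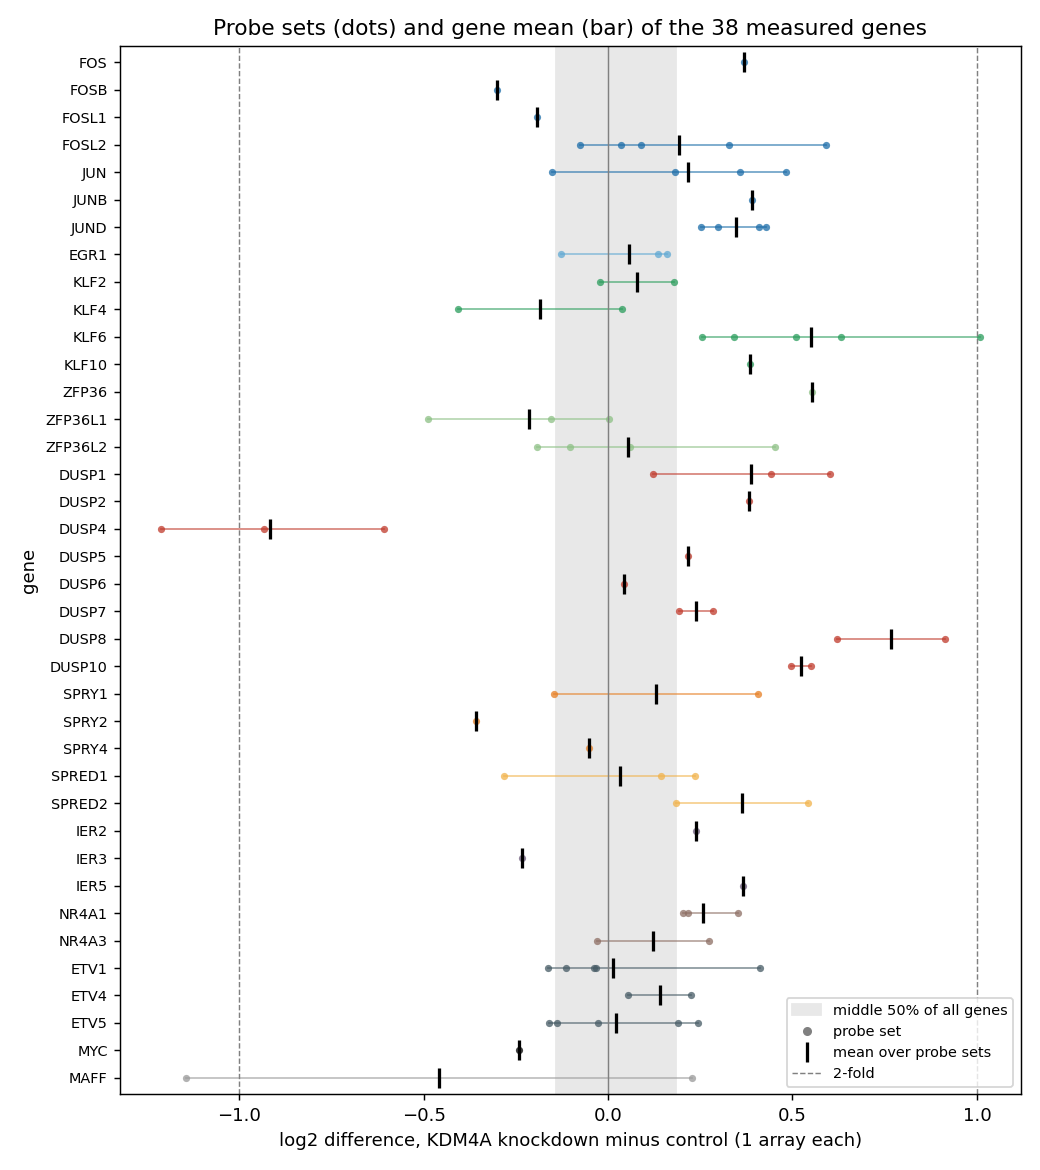
Log2 differences (KDM4A knockdown minus control, 1 array each, horizontal axis) of the 38 measured genes (vertical axis); dots are probe sets, the line joins the lowest and highest, the black bar is the gene mean, colours mark families, the grey band spans the quartiles of all genes (-0.14 to 0.18) and the dashed lines mark 2-fold. DUSP4 (-0.92) and DUSP8 (0.77) lie farthest from 0, and the probe sets of MAFF lie on opposite sides.

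The dual-specificity phosphatases held the widest range. DUSP8, a phosphatase of the JNK and p38 kinases, was the highest member at 0.77 ± 0.21 (SD over 2 probe sets), 1.7-fold. Its probe sets read -0.46 and -0.31 on the control array and 0.46 and 0.31 on the knockdown array. Of all genes, 2.28% lay at or above DUSP8. It was singled out as the highest of 38 members, so a small share goes with that choice. DUSP10, also directed at JNK and p38, read -0.28 and -0.25 in the control and 0.28 and 0.25 in the knockdown, a difference of 0.52 ± 0.038 (2 probe sets). Both probe sets of each of these phosphatases were higher in the knockdown, and those of DUSP10 differed from each other by less than those of DUSP8.

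DUSP4, a nuclear phosphatase that is itself induced by ERK signalling, was the lowest member. Its 3 probe sets read 0.61, 0.47 and 0.30 on the control array and -0.61, -0.47 and -0.30 on the knockdown array. The difference was -0.92 ± 0.30 (SD over 3 probe sets), 1.89-fold lower, with probe sets from -1.21 to -0.61. All 3 probe sets were lower in the knockdown, and 1.78% of all genes lay at or below this value. DUSP4 was singled out as the lowest of 38 members, so a small share goes with that choice. The other nuclear inducible phosphatases lay on the opposite side of 0. DUSP1, the classic early phosphatase, was at 0.39 ± 0.24 over 3 probe sets, with control values of -0.30, -0.22 and -0.061. DUSP2 was at 0.38 and DUSP5, which is specific for ERK, at 0.22, each with 1 probe set. DUSP4 was thus the only one of the 8 DUSP members below 0, and the family median was 0.31. Of all genes, 53.7% were above 0.

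The cytoplasmic ERK phosphatases lay closer to 0. DUSP6, a feedback gene widely read as a measure of ERK output, was at 0.044 with 1 probe set, near the median of all genes. DUSP7, its close relative, was at 0.24 ± 0.065 over 2 probe sets. Within the family, DUSP8 and DUSP10 had a median of 0.65, DUSP6 and DUSP7 one of 0.14, and DUSP1, DUSP2, DUSP4 and DUSP5 one of 0.30. This division follows the textbook classes and was described with the values known.

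**Figure D2:**
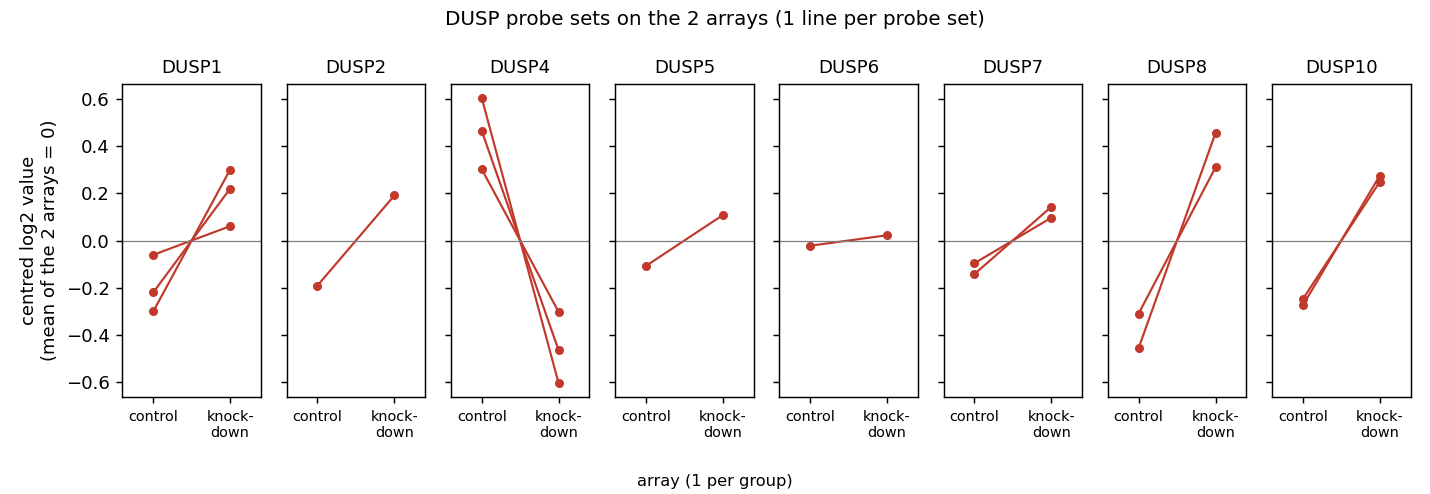
Centred log2 values (vertical axis, mean of the 2 arrays set to 0) of each DUSP probe set on the control and the knockdown array (horizontal axis, 1 array per group); each line is 1 probe set. All 3 DUSP4 lines descend, from 0.61, 0.47 and 0.30, and the lines of the other 7 phosphatases ascend.

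The Sprouty genes, inhibitors of growth factor signalling upstream of RAS, had 1 of 3 members above 0, beside 53.7% of all genes. SPRY2 read 0.18 on the control array and -0.18 on the knockdown array in its 1 probe set, a difference of -0.36. SPRY4 was at -0.051 with 1 probe set. SPRY1 was at 0.13 ± 0.39 over 2 probe sets, which read 0.41 and -0.15, so its direction is not settled. The family median was -0.051. SPRED2, which blocks activation of RAF by RAS, was at 0.36 ± 0.25 over 2 probe sets (0.54 and 0.18), both higher in the knockdown. SPRED1 was at 0.032 ± 0.28 over 3 probe sets that lay on both sides of 0. Together the 13 DUSP, SPRY and SPRED genes had a median of 0.22, with 10 (76.9%) above 0, beside 53.7% of all genes.

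AP-1 is a dimer of a JUN protein with a FOS or JUN partner. The JUN genes all lay above 0. JUNB read -0.19 in the control and 0.19 in the knockdown in its 1 probe set, a difference of 0.39. JUND, the least inducible JUN gene, was at 0.35 ± 0.086 over 4 probe sets, all of them between 0.25 and 0.43. JUN was at 0.22 ± 0.28 over 4 probe sets, 3 of them higher in the knockdown and 1 at -0.15. JUND was the AP-1 gene whose probe sets lay closest together among those with several. All 4 JUND probe sets have identifiers ending in _s_at or _x_at, which can match several transcripts.

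The FOS genes divided. FOS read -0.18 in the control and 0.18 in the knockdown, a difference of 0.37 with 1 probe set. FOSL2 was at 0.19 ± 0.27 over 5 probe sets, from -0.077 to 0.59. FOSB (-0.30) and FOSL1 (-0.19), each with 1 probe set, were lower in the knockdown. EGR1, a zinc finger factor that is often the most strongly induced early gene, was at 0.056 ± 0.16 over 3 probe sets, with 1 of the 3 below 0. EGR1 thus lay within the quartiles of all genes, whereas FOS and JUNB lay above them. The 7 AP-1 genes had a median of 0.22 and, with EGR1, 0.20. Of these 8, 6 (75%) were above 0, beside 53.7% of all genes.

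KLF6, a zinc finger factor induced by injury and growth signals, had 5 probe sets, all of them higher in the knockdown. They read between -0.13 and -0.50 on the control array and between 0.13 and 0.50 on the knockdown array, a difference of 0.55 ± 0.29 (SD over 5 probe sets). The lowest probe set difference was 0.26 and the highest 1.01. Without the 3 probe sets whose identifiers end in _s_at, which can match several transcripts, KLF6 was at 0.67 and passed 1.5-fold. The probe sets left read 0.34 (1.27-fold) and 1.01 (2.01-fold), so the former lay below 1.5-fold. KLF10, an early gene of TGF-beta signalling, was at 0.38 with 1 probe set. KLF2 was at 0.079 ± 0.14 and KLF4, a factor of epithelial differentiation, at -0.18 ± 0.32, each over 2 probe sets on both sides of 0. The KLF genes therefore ranged from -0.18 to 0.55, and KLF6 alone among those with several probe sets had all of them on one side.

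ZFP36 encodes tristetraprolin, which binds AU-rich elements and speeds the decay of early response mRNAs. It read -0.28 in the control and 0.28 in the knockdown in its 1 probe set, a difference of 0.55. Its relatives did not share that value: ZFP36L1 was at -0.21 ± 0.25 over 3 probe sets and ZFP36L2 at 0.054 ± 0.29 over 4. The 7 KLF and ZFP36 genes had a median of 0.079, with 5 (71.4%) above 0, beside 53.7% of all genes. This median lay 0.13 below that of the AP-1 and EGR genes and 0.14 below that of the DUSP, SPRY and SPRED genes, while the latter groups differed by 0.011. The pooled SD between probe sets of 1 gene was 0.33, and genes of a group are not replicates, so these gaps are descriptions only. Without probe sets whose identifiers end in _s_at or _x_at, the KLF and ZFP36 median was 0.26 over 5 genes, between that of the AP-1 and EGR genes (0.29 over 6) and that of the DUSP, SPRY and SPRED genes (0.23 over 10).

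**Figure D3:**
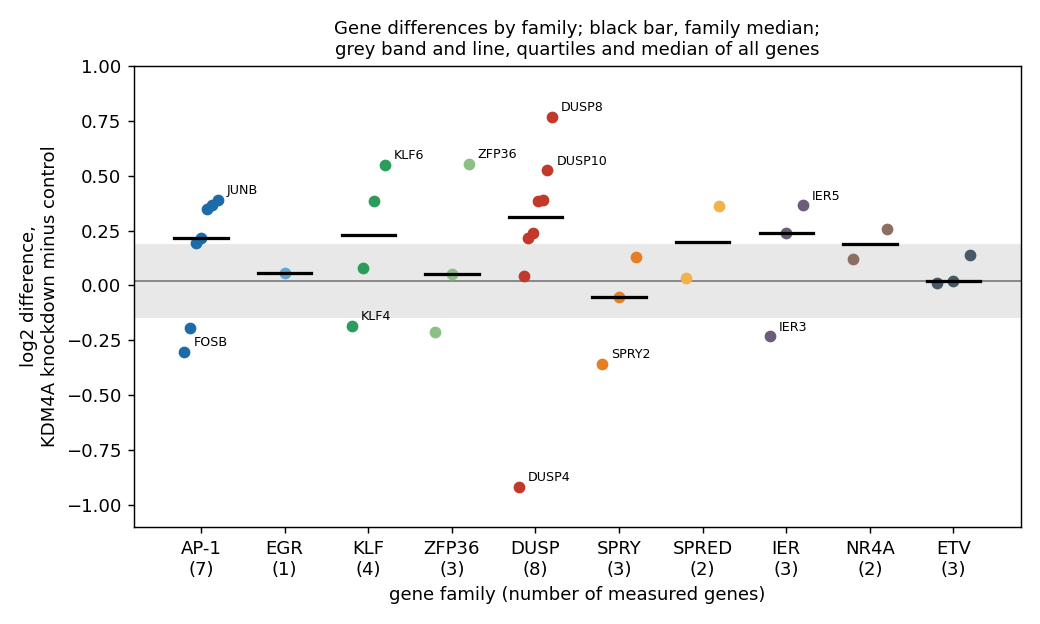
Gene differences (log2, KDM4A knockdown minus control, vertical axis) by family (horizontal axis, with the number of measured genes); dots are genes, black bars family medians, and the grey band and line the quartiles and median of all genes. The DUSP family runs from -0.92 to 0.77 with a median of 0.31, and the ETV genes lie between 0.013 and 0.14.

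The remaining early genes showed no common direction. IER5 (0.37) and IER2 (0.24), small nuclear early response proteins, were higher, and IER3, a stress-induced regulator of cell survival, was at -0.23, each with 1 probe set. NR4A1, an orphan nuclear receptor, was at 0.26 ± 0.082 over 3 probe sets, all higher in the knockdown. NR4A3 was at 0.12 ± 0.21 over 2 probe sets on both sides of 0. MYC, the growth-promoting factor, was at -0.24 with 1 probe set. MAFF, a small Maf protein, had a mean of -0.46 ± 0.97, but its 2 probe sets read -1.14 and 0.23, so the gene has no settled direction on these arrays.

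ETV1, ETV4 and ETV5 are ETS factors whose expression follows ERK activity in many cell types, and ETV1 is expressed in LNCaP through a chromosomal rearrangement. ETV1 was at 0.013 ± 0.23 and ETV5 at 0.022 ± 0.19, each over 5 probe sets on both sides of 0. ETV4 was at 0.14 ± 0.12 over 2 probe sets. All of them lay within the quartiles of all genes. Their median of 0.022 was -0.027 with medians over probe sets, so it has no settled sign.

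Promoter windows, from 250 bases before to 50 after a transcription start, were taken from RefSeq (GRCh38.p14) for 30 of the 41 listed genes. Of the 30, 29 had a difference here, and EGR2 was the exception. No window was available for DUSP4, the lowest member, or for DUSP5, FOSL1, EGR3, IER3, MYC, NR4A2, KLF10, ZFP36L2, ETV4 and ETV5. Motifs in these genes were not searched. Where a gene had several starts, the most upstream one in the table was used. Sites outside the window, including those near other starts, were not searched. Absence of a match therefore holds for these windows only. Both strands were searched for the full cAMP response element TGACGTCA, to which CREB and ATF proteins bind, its core TGACG, the AP-1 site TGANTCA, the ETS site CCGGAAG and the CArG box of SRF. The full element was present in 4 of 30 windows (13.3%), beside 2.75% of 13884 windows of measured genes. These were the windows of DUSP8, DUSP1, JUND and MAFF. The core alone, which each full element contains on both strands, was present in 17 of 30 windows (56.7%), beside 30.5% of all. CArG boxes were found in EGR1 alone among the 30 windows, beside 1.15% of all. AP-1 sites were found in FOSL2 alone, beside 5.37% of all, and ETS sites in IER2 alone, beside 15.3% of all. Member windows were richer in G and C, with a median of 68.8% beside 63.7%, and the part of this in the shares was not tested.

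The 4 windows with a full cAMP response element are shown with that of EGR1, because they set the highest member and DUSP1 beside JUND, MAFF and a gene close to 0. They are DUSP8 (chr11:1572222-1572521, minus strand), DUSP1 (chr5:172771146-172771445, minus strand), JUND (chr19:18281573-18281872, minus strand), MAFF (chr22:38201744-38202043, plus strand) and EGR1 (chr5:138465229-138465528, plus strand). Each is printed 5′ to 3′ on the gene's strand, and capitals mark the core of the cAMP response element on either strand or, in EGR1, also the CArG boxes.
DUSP8: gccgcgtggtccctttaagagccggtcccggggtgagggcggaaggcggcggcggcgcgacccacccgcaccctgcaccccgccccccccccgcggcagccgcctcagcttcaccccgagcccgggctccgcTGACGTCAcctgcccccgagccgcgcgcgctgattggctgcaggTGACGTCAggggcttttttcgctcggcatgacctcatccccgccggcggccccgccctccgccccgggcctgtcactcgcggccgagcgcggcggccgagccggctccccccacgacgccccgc
DUSP1: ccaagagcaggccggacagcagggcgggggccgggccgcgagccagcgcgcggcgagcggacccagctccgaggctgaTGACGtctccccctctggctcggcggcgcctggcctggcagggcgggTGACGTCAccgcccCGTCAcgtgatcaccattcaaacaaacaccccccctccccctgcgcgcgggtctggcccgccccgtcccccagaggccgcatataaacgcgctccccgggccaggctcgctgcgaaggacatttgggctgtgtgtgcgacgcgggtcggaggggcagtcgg
JUND: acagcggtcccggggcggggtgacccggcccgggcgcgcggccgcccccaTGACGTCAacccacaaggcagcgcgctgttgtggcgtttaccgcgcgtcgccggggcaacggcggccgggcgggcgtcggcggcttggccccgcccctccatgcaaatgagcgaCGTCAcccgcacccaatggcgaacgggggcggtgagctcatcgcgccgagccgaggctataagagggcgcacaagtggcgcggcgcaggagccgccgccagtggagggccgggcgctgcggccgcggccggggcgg
MAFF: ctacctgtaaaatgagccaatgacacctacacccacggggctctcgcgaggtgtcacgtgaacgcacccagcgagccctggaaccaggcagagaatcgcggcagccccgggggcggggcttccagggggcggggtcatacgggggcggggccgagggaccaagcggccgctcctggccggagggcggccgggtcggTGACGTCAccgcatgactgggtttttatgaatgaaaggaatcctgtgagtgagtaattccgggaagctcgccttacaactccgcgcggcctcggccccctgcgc
EGR1: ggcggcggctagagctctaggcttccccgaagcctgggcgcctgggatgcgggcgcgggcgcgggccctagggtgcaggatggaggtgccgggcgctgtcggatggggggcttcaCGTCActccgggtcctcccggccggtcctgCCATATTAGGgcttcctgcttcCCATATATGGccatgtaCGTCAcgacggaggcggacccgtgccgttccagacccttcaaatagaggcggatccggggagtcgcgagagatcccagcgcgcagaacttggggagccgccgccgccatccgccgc

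DUSP8 carried 2 full elements, with left ends at -118 and -74 from the start, and DUSP1 carried 1 at -125 with 2 further cores. JUND carried 1 at -200 and MAFF 1 at -54. The differences of DUSP8, DUSP1 and JUND were 0.77, 0.39 and 0.35, and MAFF had probe sets on both sides of 0. EGR1, with 2 CArG boxes and 2 cores, was at 0.056. A match describes the letters only. DUSP10, KLF6 and ZFP36, the next highest members, held none of these motifs in their windows. DUSP4, the lowest member, had no window to search.

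The wider pathway was described with 6 further lists. Of 96 different genes, 80 were measured, 49 of them were above 0, beside 53.7% of all genes, and the median was 0.057. At the 2-fold rule 1 of 80 was higher and 2 of 80 were lower, beside 1.16% and 1.44% of all genes. CCN1, a secreted matrix protein and early gene, was 2.51-fold higher (1.33 ± 0.33, 2 probe sets). RPS6KA2, a kinase activated by ERK, was 2.1-fold lower (-1.07 ± 0.51, 3 probe sets). MAP2K6, an activating kinase of p38, was 2.67-fold lower (-1.42, 1 probe set).

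Most other signal carriers lay near 0. The 16 measured ERBB and FGF ligands and receptors had a median of 0.060 and ran from -0.22 for EGFR to 0.37 for FGF2. The 16 measured genes from GRB2 to the ERK-activated kinases had a median of 0.063, and the highest was SHC1, an adaptor of receptor kinases, at 0.70 ± 0.094 over 2 probe sets. The 12 measured p38 and JNK kinases had a median of -0.018, with MAP3K5, an upstream stress kinase, highest at 0.54 ± 0.074 over 2 probe sets.

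Of 9 measured SRF and CREB factors, which act on early promoters, 1 was at least 1.5-fold higher (SRF), beside 4.3% of all genes. Another 1 was at least 1.5-fold lower (CREB1), beside 4.38% of all genes. SRF, which binds CArG boxes, was at 0.93 ± 0.54 over 2 probe sets, which read 0.55 and 1.31. CREB1, which binds cAMP response elements, was at -0.63 ± 0.39 over 7 probe sets, all of them between -1.19 and -0.26. The median of these 9 was 0.051, with quartiles of -0.097 and 0.20. Among 17 other early response genes the median was 0.023, with 9 (52.9%) above 0, beside 53.7% of all genes.

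The other phosphatases and feedback genes had a median of 0.13, equal to that of the members at this rounding. Of these, 9 of 11 (81.8%) were above 0, beside 53.7% of all genes. ERRFI1, an inhibitor of the EGF receptor, was highest at 0.88 with 1 probe set. DUSP3 was at 0.83 ± 0.091 over 3 probe sets and DUSP14 at 0.63 with 1. DUSP16, the closest relative of DUSP8 and DUSP10 by target, was at 0.061 ± 0.54 over 4 probe sets, and DUSP9, related to DUSP6, at 0.13. RASA2, which inactivates RAS, was lowest at -0.62 ± 0.64 over 3 probe sets.

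**Figure D4:**
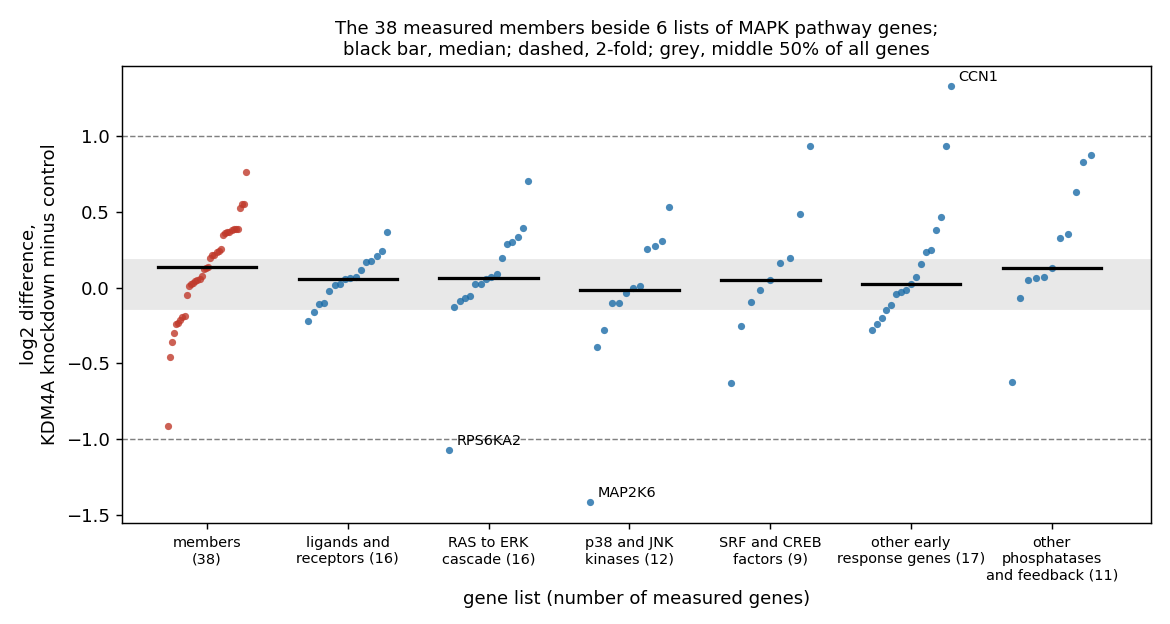
Log2 differences (KDM4A knockdown minus control, vertical axis) of the 38 measured members (red) and of 6 lists of MAPK pathway genes (blue, horizontal axis with the number measured; SRF is in 2 of the lists); dots are genes, black bars medians, dashed lines 2-fold and the grey band the quartiles of all genes. CCN1, RPS6KA2 and MAP2K6 pass 2-fold, and no member does.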

How the data were processed

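RNA from 2 LNCaP cultures was hybridised to 1 array per group. The values the authors deposited were read as log2 values, and RMA, with no version, is named in the submitters' processing notes. In each of 44672 rows the 2 values sum to 0 within 1e-06, so probe sets were centred on the mean of both arrays. The centring step and any filter are not stated in the labels, and the log base was taken as 2, the scale of RMA. No level, detection filter or brightest probe set could be had.

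A difference was knockdown minus control, averaged over a gene's probe sets. The platform annotation, checked by Entrez identifier against RefSeq, named 1 gene for 34880 probe sets (34839 matched). Several genes (1619), no gene (8131) and 42 control probe sets were left out. Sizes of 2-fold and 1.5-fold are descriptions, not tests. The rule for the members used no measured value, but the members and lists were chosen with earlier results of these data known. All members are named, and of other lists the genes past 2-fold, else those farthest from 0 each way. SHC1, MAP3K5, IGF1R, DUSP3, DUSP9, DUSP14 and DUSP16 were added after their values were seen or for comparison with members. Averaging was run on simulated data with independent noise and planted differences larger than that of any member. This checks the arithmetic only, and small differences or effects shared by probe sets were not simulated. Alternatives were medians over probe sets, no _s_at or _x_at probe sets, centring on the median difference, genes with several probe sets, group means and the 1.5-fold rule. Python 3.11.15, numpy 2.4.6 and pandas 2.3.3 were used.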

Additional observations from a re-analysis of the deposited data

How the results depend on the processing

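No paired analysis was possible because each group had 1 array, and no array could be left out. The median of the members was 0.22 over the 29 genes left without _s_at and _x_at probe sets, and the KLF and ZFP36 median was then 0.26 over 5 genes. The ETV median turned to -0.027 with medians over probe sets. The 1.5-fold rule gave 1 higher and 1 lower member in place of 0 and 0. The cause of these shifts was not tested. ZFP36L2, ETV1 and ETV5 changed sign with medians over probe sets, NR4A3 without _s_at and _x_at probe sets and ETV1 with the median difference subtracted. Depth has no counterpart here, because centring removed signal and background.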

Other observations

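Probe sets of some receptors of the pathway had a larger SD than any member other than MAFF. The 5 probe sets of IGF1R, the receptor for insulin-like growth factor, ran from -1.05 to 1.06 (mean 0.18 ± 0.79, SD), and the 9 of EGFR from -1.22 to 0.44 (mean -0.22 ± 0.52). For such genes a mean over probe sets near 0 does not stand for probe sets near 0. MAFF, with probe sets at -1.14 and 0.23, had an SD of 0.97 over 2 probe sets, the largest among the members with several probe sets.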
